A study of Mus musculus with 18 samples.

Results

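Regulatory T (Treg) cells of the bone marrow were compared with Treg cells of the spleen. The comparison rests on 6 of the 18 libraries of a mouse poly(A) RNA-seq series, 3 from bone marrow and 3 from spleen. It covers the 14645 of 55487 annotated genes that averaged 1 TPM or more in either group, where TPM is a gene's share of all transcripts on a fixed scale. The series holds CD4+ Foxp3+ T cells of 6 sites, and the sites not compared here are lymph node, lung, liver and blood, with 3 libraries each. Every library came from wild-type mice that received no treatment, and the cells were sorted and used fresh. The labels used here give no age, sex, strain or sorting gate, and they do not state the number of animals per library, or that replicates came from separate animals. The p-values below therefore measure only the spread between these libraries.

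Treg cells are CD4-positive T cells that depend on the transcription factor Foxp3 and restrain other immune cells. In the spleen many of them lie in T cell zones, which lymphocytes enter through the receptor Ccr7. The bone marrow is the organ of blood formation, where Treg cells are held by the receptor Cxcr4, whose ligand Cxcl12 is made by stromal cells, and where they are known to lie near blood stem cells and to support them.

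Fold changes are bone marrow minus spleen on log2(TPM + 1), which understates the change of genes with low values, and each came from a limma fit over all 14645 genes. A gene is called here when its Benjamini-Hochberg adjusted p was under 0.05. Low TPM values fell in steps, from which the worth of a single read was taken per 1 kb of transcript length after subtracting 250 bases. It came to 0.114 TPM for bone marrow and 0.155 TPM for spleen. By this measure, which also depends on the lengths of the transcripts in a library, the marrow libraries were about 1.36 times as deep. Replicates lay close together, with a median coefficient of variation of 3.23% in bone marrow and 5.24% in spleen among genes of at least 100 TPM. Ribosomal protein genes held 17.5% of all TPM in bone marrow and 27.3% in spleen, and 80 of 85 were called lower and 0 higher. Of 15 mitochondrially encoded genes 2 were called higher and 6 lower, and with the libraries scaled to 20 T cell genes 8 were higher and 4 lower. Xist, the RNA of the inactive X chromosome, stayed under 1 TPM in all 6 libraries, and Y-linked Ddx3y was at 58.6, 55.9 and 57.3 TPM in bone marrow and 69.5, 74.2 and 69.2 TPM in spleen.

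In all, 5100 of the 14645 genes were called (34.8%). Of these, 3702 were higher in bone marrow (25.3%) and 1398 lower (9.55%). Each count of called list members below is to be read beside these shares. The 3 and 3 libraries did not overlap for 7243 genes (49.5%), 5112 of them higher in bone marrow (34.9%) and 2131 lower (14.6%). Lack of overlap was therefore common among all genes tested. A change of at least 1 log2 unit was called higher for 1610 genes (11.0%) and lower for 332 (2.27%). The median log2 fold change of all genes was 0.15, and it depended on the scaling. With the libraries scaled to the geometric mean of 20 T cell genes it was 0.43, with 6976 genes higher and 660 lower. It was 0.03 under median-ratio scaling, with 2737 genes higher and 2051 lower. With mitochondrial, ribosomal protein and other-cell genes left out and the rest rescaled it was 0.06, with 2800 higher and 1750 lower.

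**Figure D1:**
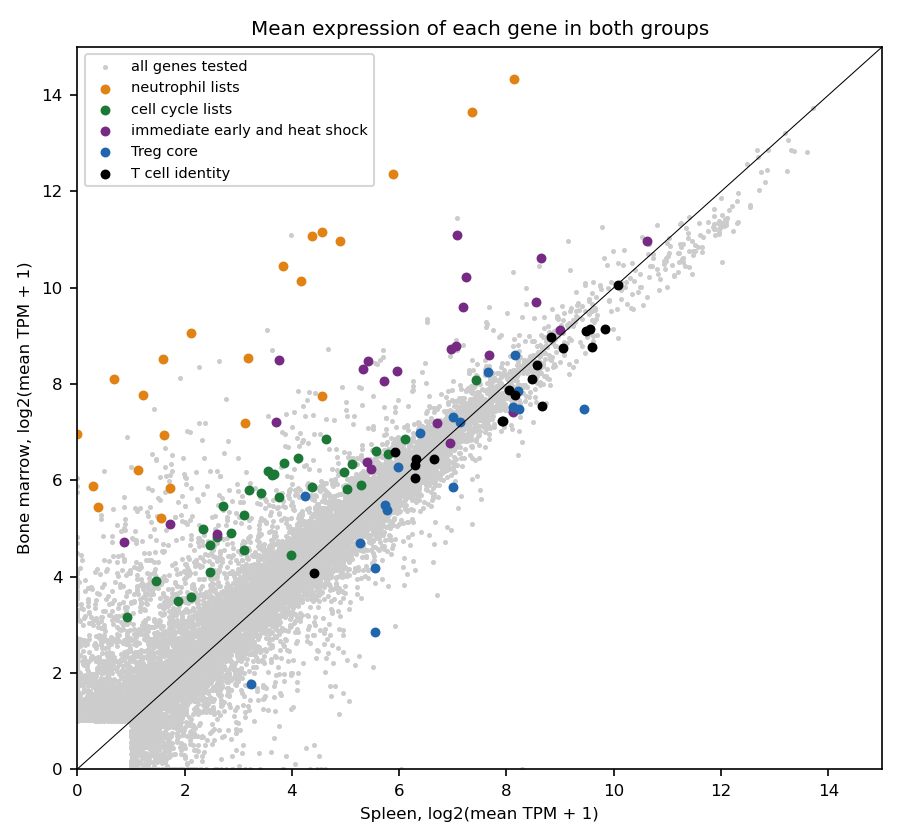
Mean TPM of each of the 14645 genes in spleen (x axis) and bone marrow (y axis), both as log2(mean TPM + 1), with the diagonal marking equal levels. All 22 genes of the neutrophil lists and 30 of 31 cell cycle genes called higher lie above the diagonal, while T cell identity and Treg core genes lie on both sides of it, from Itgae at 1.44 to Gpr83 at -2.72 on the log2 scale.

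Genes of T cells and Treg cells were examined first. All 20 T cell identity genes and all 18 Treg core genes reached 1 TPM in both groups. So did all 10 mature B cell genes and all 13 monocyte and macrophage genes, so this floor cannot test the cell label. Foxp3 itself, the defining transcription factor, stood at 148, 150.3 and 144 TPM in bone marrow and 132, 149 and 138 TPM in spleen. The libraries overlapped and Foxp3 was not called (log2 fold change 0.08, SE 0.06, limma adjusted p = 0.336). Scaled to T cell genes it was called higher in bone marrow, at 0.38 (limma adjusted p = 0.00164). T cell identity genes together held 6083 ± 44.9 TPM (SD, n = 3) in bone marrow and 7807 ± 78.02 TPM in spleen. In this list 15 of 20 genes were called lower (75%) and 1 higher (5%), against 9.55% and 25.3% of all genes. The list median was -0.32. Scaled to the list itself, which centres its mean, 5 were lower and 6 higher. The signalling subunit Cd3d fell most, from 404 to 186 TPM (log2 fold change -1.11). The constant region Trac was at 1085, 1048 and 1046 TPM in bone marrow and 1093, 1128 and 1006 TPM in spleen and was not called, though it was called higher when scaled to T cell genes (0.28) and lower under median-ratio scaling (-0.15).

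Genes of neutrophils, which form in the bone marrow, were higher there throughout. The 22 genes of 3 neutrophil lists summed to 50453 ± 209.7 TPM (SD, n = 3) in bone marrow, 5.05% of all TPM, with a range of 50248 to 50667. In spleen they summed to 658 ± 89.9 TPM, with a range of 568 to 747, and in lymph node to 52.2 TPM. All 22 were called higher, against 25.3% of all genes. None had overlapping libraries, while 34.9% of all genes were higher in bone marrow without overlap. S100a9, a subunit of calprotectin in the neutrophil cytosol, was at 20689, 20691 and 20725 TPM in bone marrow and 319.7, 229.8 and 292 TPM in spleen.

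Each of the 3 lists, which follow the stages of neutrophil formation, was higher in bone marrow in all of its genes. Genes of primary granules, which are packed in promyelocytes, summed to 1356 ± 3.62 TPM in bone marrow and 6.24 ± 1.87 TPM in spleen. Mpo, the myeloperoxidase of these granules, was at 542, 517 and 546 TPM in bone marrow and 3.92, 3.58 and 2.62 TPM in spleen, while the protease Ctsg was at 127, 123 and 120.2 TPM in bone marrow and listed at 0 in every spleen library. Genes of secondary granules, such as lactoferrin (Ltf), summed to 13052 ± 116.7 TPM against 149.7 ± 25.03 TPM. Late neutrophil genes summed to 36044 ± 198.9 TPM against 502 ± 66.4 TPM. The blood libraries gave another mixture, with late genes at 20268 TPM and primary granule genes at 15.8 TPM. The plot of summed lists by library shows these gaps.

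**Figure D2:**
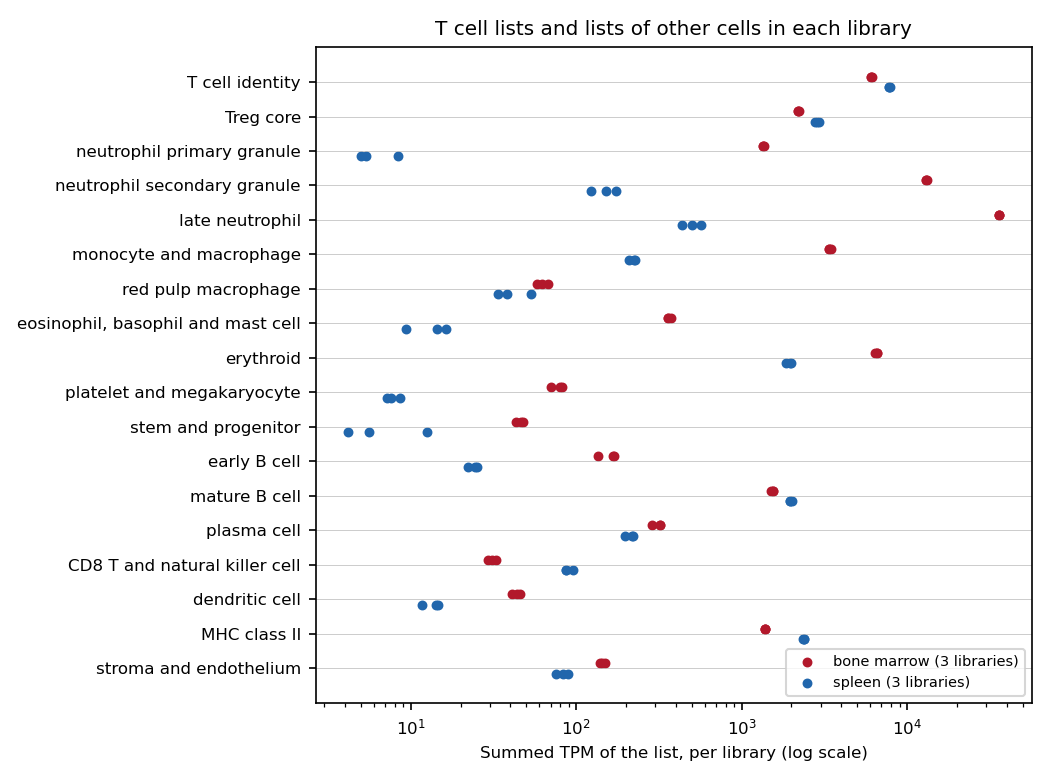
Summed TPM (x axis, log scale) of 2 T cell lists and 16 lists of other cells in each library, with bone marrow in red and spleen in blue. The 3 marrow points lie right of the 3 spleen points for every neutrophil list and left of them for mature B cell, CD8 T and natural killer, and MHC class II genes.

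Other marrow lineages followed the same direction. In the erythroid list all 9 genes were called higher, with a sum of 6521 ± 96.5 TPM in bone marrow and 1938 ± 77.98 TPM in spleen. Klf1, the transcription factor of red cell precursors, was at 29.4, 28.7 and 26.3 TPM in bone marrow and 2.29, 4.4 and 3.35 TPM in spleen. All 8 early B cell genes were called higher. The surrogate light chain gene Igll1 was at 26.5, 25.2 and 23.1 TPM in bone marrow and listed at 0 in every spleen library, and the recombinase Rag1 was at 10, 11.3 and 10.4 TPM in bone marrow and 0.05, 0.37 and 0.02 TPM in spleen. In the list of eosinophil, basophil and mast cell genes 10 of 11 were called higher, led by the eosinophil granule gene Prg2 with 182, 172 and 178 TPM in bone marrow and 0.27, 3.55 and 1.23 TPM in spleen. Among stem and progenitor genes 6 of 7 tested were called higher, and their sum was 45.6 ± 2.28 TPM in bone marrow and 7.44 ± 4.499 TPM in spleen. Called higher were also 8 of 13 monocyte and macrophage genes, 5 of 6 tested platelet genes, 4 of 7 tested dendritic cell genes and 6 of 7 tested genes of stroma and endothelium, where 1 was lower. Of 5 red pulp macrophage genes 1 was called higher (20%) and 1 lower (20%), against 25.3% and 9.55% of all genes. These genes did not mark the spleen libraries. Their sums were 62.5 ± 4.53 TPM in bone marrow, 41.7 ± 10.3 TPM in spleen and 195 TPM in blood.

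Several genes of mature lymphoid cells were lower in bone marrow. Mature B cell genes summed to 1527 ± 23.1 TPM in bone marrow and 1978 ± 33.2 TPM in spleen, with 6 of 10 called lower and 1 higher and a median of -0.48. Scaled to T cell genes 5 were lower and 4 higher, with a median of -0.18. Cr2, the complement receptor of marginal zone and follicular B cells, fell from 25.97 to 4.96 TPM. CD8 T and natural killer genes summed to 31.1 ± 1.78 against 89.7 ± 5.12 TPM. Of these 10 genes 8 were lower (80%, against 9.55% of all genes) and 0 higher. After scaling to T cell genes 5 were lower and 0 higher. The calls of Ncr1, Klrb1c, Eomes and Prf1 were also lost without any 1 of the 3 bone marrow libraries. Of 5 MHC class II genes 4 were called lower. Plasma cell genes were split, since the IgA constant gene Igha rose (log2 fold change 2.24) and Jchain fell (log2 fold change -1.06), a call that was lost in a fit over all 18 libraries (limma adjusted p = 0.0846). The other-cell lists without MHC class II and sex-linked genes, 129 genes together, held 6.31% of TPM in bone marrow and 0.529% in spleen. The MHC class II list left out of this sum held 0.139% in bone marrow and 0.237% in spleen. None of the 129 was at 0 in every marrow library, and 8 were at 0 in every spleen library. In bulk samples fewer cells of a type and less RNA per cell cannot be told apart, and the part of these other cells in the results below was not tested.

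The Treg core genes did not move as 1 group. Of 18 genes 6 were called higher and 9 lower, with a median of -0.37, against 25.3% and 9.55% of all genes. Ctla4, the inhibitory receptor that removes costimulatory ligands from other cells, rose from 210.1, 187 and 205 TPM in spleen to 309.6, 297 and 301 TPM in bone marrow (log2 fold change 0.59, SE 0.05, limma adjusted p = 0.000238). The integrin chain Itgae rose more, from 19.7, 19.7 and 14.3 to 48.5, 50.4 and 50.3 TPM. Nrp1 and the transcription factor Ikzf2, which are used as marks of thymus-derived Treg cells, also rose (log2 fold changes 0.59 and 0.30).

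Among the core genes that fell were the parts of the interleukin-2 receptor that Treg cells use. Il2ra, the high-affinity chain, was at 57.9, 52.8 and 60.7 TPM in bone marrow and 132, 125 and 127 TPM in spleen, with no overlap (log2 fold change -1.15, SE 0.07, limma adjusted p = 3.63e-05). The shared chain Il2rb fell by less (log2 fold change -0.59), and Il2rg, which belongs to the cytokine receptor list, was at 592, 581 and 599 TPM in bone marrow and 612, 599 and 603 TPM in spleen and was not called, though it was called higher when scaled to T cell genes (0.27) and lower under median-ratio scaling (-0.17). Il2 itself, the ligand, was at 0.13, 0.37 and 0.13 TPM in bone marrow and 15.9, 12.8 and 13 TPM in spleen, one of the 8 largest falls (log2 fold change -3.62). Izumo1r, which encodes folate receptor 4, fell from 694, 734 and 662 to 184, 174 and 176 TPM, and the orphan receptor Gpr83 fell from 47.97, 42.7 and 46.8 to 7.09, 4.93 and 6.52 TPM. Lrrc32, which anchors latent TGF-beta on the Treg surface, fell from 45.6 to 17.2 TPM. Scaled to T cell genes 7 of the 18 were higher and 7 lower.

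**Figure D3:**
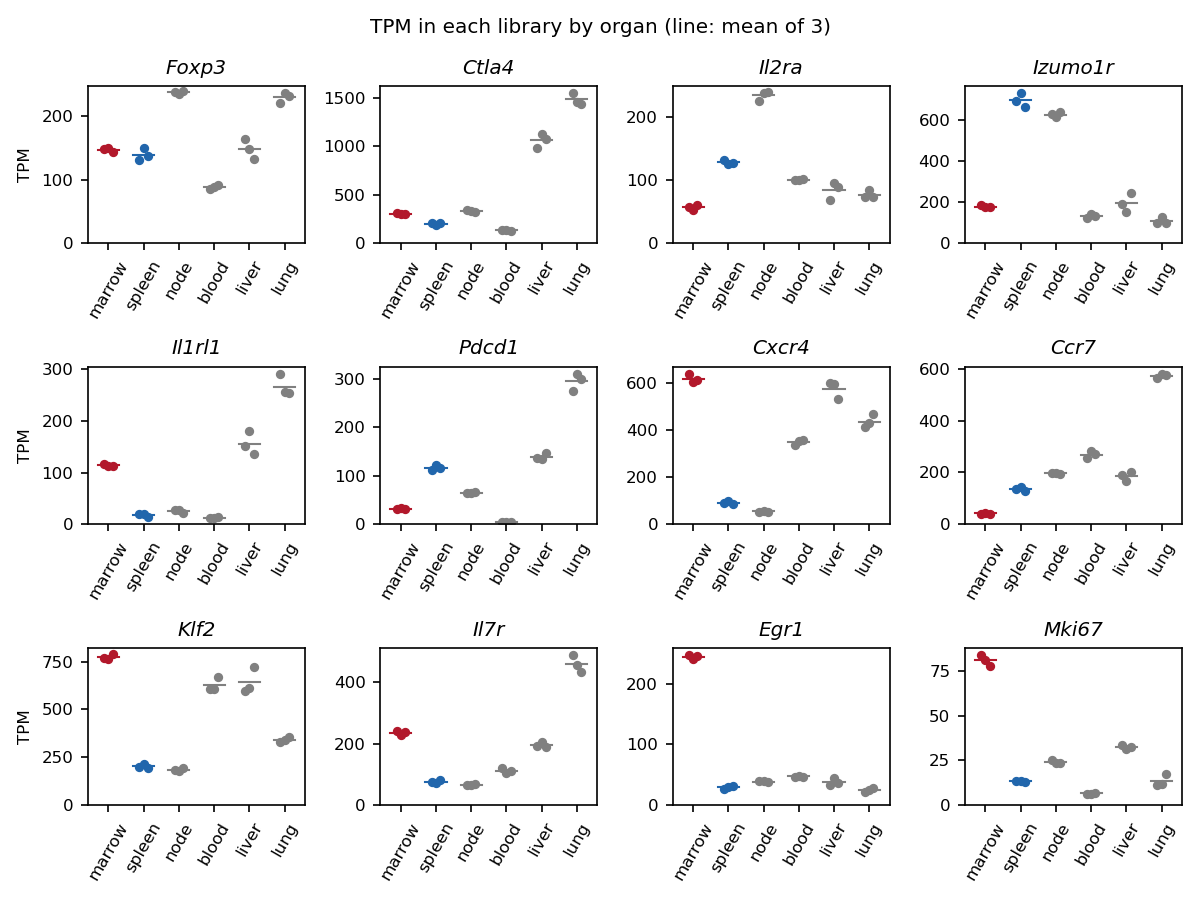
TPM (y axis, from 0) of 12 genes in each library of the 6 organs, with points for libraries and lines for means of 3, bone marrow in red and spleen in blue. Marrow and spleen overlap for Foxp3, marrow lies above spleen for Ctla4, Il1rl1, Cxcr4, Klf2, Il7r, Egr1 and Mki67, and it lies below spleen for Il2ra, Izumo1r, Pdcd1 and Ccr7.

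Regulators and receptors of effector Treg cells were mostly higher in bone marrow, with 11 of 20 called higher (55%) and 3 lower (15%). Among all genes 25.3% were higher and 9.55% lower. The median of the effector list was 0.75. Il1rl1 encodes ST2, the interleukin-33 receptor of tissue Treg cells. Its level was 116, 112 and 112 TPM in bone marrow and 19.1, 18.99 and 14.1 TPM in spleen (log2 fold change 2.65, SE 0.12, limma adjusted p = 1.20e-05). It was at 156 TPM in liver, 266 TPM in lung and 12.5 TPM in blood. Mast cells and basophils also carry ST2, and the list of eosinophil, basophil and mast cell genes summed to 363 ± 9.66 TPM in bone marrow and 13.3 ± 3.58 TPM in spleen (SD, n = 3). Their part in the level of Il1rl1 was not tested. Gata3, a transcription factor of ST2-positive Treg cells, rose from 52.97 to 92.6 TPM, and Rora rose from 12.6 to 38.1 TPM. The activation receptor Klrg1 rose from 39.3, 25.6 and 30.7 to 88.95, 83.8 and 92.3 TPM.

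Other effector genes fell or were not called. Penk, which encodes proenkephalin, fell from 98.8, 115 and 96.8 TPM in spleen to 10.95, 10.6 and 12.2 TPM in bone marrow (log2 fold change -3.09). Tnfrsf9, the costimulatory receptor 4-1BB that antigen receptor signals induce, fell from 121, 117 and 105 to 25.01, 21.04 and 30.3 TPM. The AP-1 family factor Batf fell by less (log2 fold change -0.47), and scaled to T cell genes it was not called (-0.17, limma adjusted p = 0.0505). Maf and Ccr8 were not called, with log2 fold changes of 0.13 and -0.35. Maf was called higher when scaled to T cell genes (0.43), and Ccr8 was called lower under median-ratio scaling (-0.48) and without spleen replicate 2 (-0.43). Of the 20 genes 16 were higher and 2 lower when scaled to T cell genes.

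Inhibitory and costimulatory receptors were mostly lower in bone marrow. Of 15 genes 10 were called lower (66.7%) and 2 higher (13.3%), against 9.55% and 25.3% of all genes. Their median was -0.62. After scaling to T cell genes 7 were lower and 4 higher, with a median of -0.32. Pdcd1, the receptor PD-1, was at 31.1, 33.1 and 31.4 TPM in bone marrow and 113, 122 and 117 TPM in spleen (log2 fold change -1.84, SE 0.06, limma adjusted p = 2.80e-06). Lag3, a receptor for MHC class II, fell from 33.7, 29.03 and 27.4 to 6.4, 6.15 and 6.82 TPM. Cd200, Cd160 and Cd83 fell as well (log2 fold changes -1.98, -1.94 and -1.55). Tigit was at 137, 144 and 135 TPM in bone marrow and 146, 156 and 125 TPM in spleen and was not called, or was called higher when scaled to T cell genes (0.27). Vsir, which encodes the inhibitory receptor VISTA, rose from 119.8 to 196 TPM and was at 213 TPM in blood.

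Of 14 suppressive and marrow niche factors 6 were called higher (42.9%) and 3 lower (21.4%), against 25.3% and 9.55% of all genes. Their median was 0.43. Under median-ratio scaling 4 were higher and 4 lower, and after scaling to T cell genes 8 were higher and 3 lower. Fgl2, a secreted suppressive protein, rose from 17.7, 20.6 and 16.2 TPM in spleen to 79.5, 75.8 and 80.1 TPM in bone marrow, and its level in blood was 218 TPM. Gzmb, the protease granzyme B, rose from 8.1, 3.59 and 6.61 to 22.1, 22.8 and 16.4 TPM, and Lgals1, which encodes galectin-1, rose from 282 to 488 TPM. Areg, a growth factor of tissue Treg cells, was at 10.7, 16.1 and 10.1 TPM in bone marrow and 5.71, 6.59 and 7.93 TPM in spleen. Its call (log2 fold change 0.76, limma adjusted p = 0.0304) was lost under median-ratio scaling (0.64, limma adjusted p = 0.0571) and in the fit without any 1 of bone marrow replicates 1 and 2 or spleen replicates 1 and 2, with log2 fold changes from 0.57 to 0.84.

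The ectoenzymes that turn extracellular ATP into adenosine did not move together. Nt5e encodes CD73, which makes adenosine from AMP, and fell from 102, 101 and 104 TPM in spleen to 60.6, 58.2 and 57.2 TPM in bone marrow (log2 fold change -0.80, SE 0.06, limma adjusted p = 7.32e-05). Entpd1 encodes CD39, the enzyme before it. Its spleen values spread over 15.5, 51.9 and 22.7 TPM, its marrow values were 43.04, 38.6 and 37.03 TPM, and it was not called. Without spleen replicate 2 it was called higher, at 1.03 (limma adjusted p = 0.0087). Itgb8, which activates latent TGF-beta, fell from 11.01 to 4.69 TPM, while Tgfb1 rose (log2 fold change 0.42). Il10 was at 11.3, 9.36 and 10.5 TPM in bone marrow and 9.5, 9.59 and 5.43 TPM in spleen and was not called.

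Genes of resting T cells were called lower for 11 of 21 (52.4%) and higher for 3 (14.3%), against 9.55% and 25.3% of all genes. The median was -0.36. Scaled to T cell genes 8 were lower and 5 higher, with a median of -0.05. Bcl2, an inhibitor of cell death, fell from 57.6, 53.7 and 57.6 TPM in spleen to 21.4, 20.3 and 21.4 TPM in bone marrow. The transcription factors Id3, Satb1, Tcf7 and Lef1 also fell (log2 fold changes -1.35, -1.03, -0.87 and -0.61). Ccr7, the receptor for entry into T cell zones, fell from 135, 144 and 127 to 41.3, 44.8 and 39.7 TPM (log2 fold change -1.67, SE 0.08, limma adjusted p = 1.16e-05).

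The list also held genes that rose. Klf2, the transcription factor that drives the exit receptor S1pr1, was at 771, 766 and 791 TPM in bone marrow and 199.9, 217 and 193 TPM in spleen (log2 fold change 1.93, SE 0.05, limma adjusted p = 1.01e-06). S1pr1 itself averaged 164 TPM in spleen and 196 TPM in bone marrow (log2 fold change 0.25), a call that was lost under median-ratio scaling (0.12, limma adjusted p = 0.0889). Il7r, the receptor for interleukin-7, which marrow stroma makes, rose from 74.5, 72.9 and 80.6 to 239.6, 229 and 237 TPM. In lymph node Klf2 and Il7r were at 185 and 66.4 TPM, near their spleen levels, and in blood at 627 and 112 TPM.

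Chemokine and lipid chemoattractant receptors were called higher for 10 of 14 (71.4%) and lower for 1 (7.1%), against 25.3% and 9.55% of all genes. The median of these receptors was 0.76. Cxcr4 rose most among those of at least 20 TPM in both groups, with 639.8, 606 and 613 TPM in bone marrow and 90.3, 98.03 and 84.1 TPM in spleen (log2 fold change 2.76, SE 0.06, limma adjusted p = 6.34e-07). The lowest marrow library lay far above the highest spleen library. Neutrophils and B cell precursors also carry Cxcr4. Its level was 577 TPM in liver, 437 TPM in lung and 349 TPM in blood. Ccr2, the receptor of inflammatory monocytes and effector T cells, rose from 20, 21.8 and 24.6 to 124, 122 and 127 TPM and was at 355 TPM in blood, where monocyte and macrophage genes summed to 8682 TPM. The corresponding monocyte sums were 3406 ± 58.9 TPM in bone marrow and 219 ± 10.02 TPM in spleen.

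Receptors typical of T cells moved as well. Cxcr6, a receptor of tissue T cells, rose from 17.1, 17.8 and 15.6 to 58.3, 52.8 and 53.9 TPM, and its blood level was 10.5 TPM. Cxcr3, which is induced by T-bet, rose from 84.2 to 138 TPM, and Ccr4 rose from 29.04 to 51.8 TPM. Ccr10 rose from 0.55, 2.07 and 1.61 to 11.8, 10.6 and 12.7 TPM. Cxcr5, which guides cells into B cell follicles, fell from 52.5, 74.8 and 71.9 TPM in spleen to 20.9, 16.3 and 15.1 TPM in bone marrow (log2 fold change -1.87, SE 0.17, limma adjusted p = 0.000305). Gpr183 and Ccr9 were not called, but Gpr183 was called lower under median-ratio scaling (-0.30) and Ccr9 higher when scaled to T cell genes (0.81) or without spleen replicate 3 (0.69). Ccr6 was called higher (0.32), but not under median-ratio scaling (0.19, limma adjusted p = 0.184) or without any 1 of the 3 bone marrow libraries.

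Integrins and adhesion genes were called higher for 11 of 16 (68.8%) and lower for 2 (12.5%), against 25.3% and 9.55% of all genes. For this list the median was 0.39. Itgb1, the beta chain of the receptors for collagen, fibronectin and Vcam1, was at 510.5, 501 and 504 TPM in bone marrow and 234, 232 and 228 TPM in spleen (log2 fold change 1.12, SE 0.03, limma adjusted p = 1.26e-06). Its partner Itga4 was at 89.5 TPM in spleen and 98.9 TPM in bone marrow and was not called, except when scaled to T cell genes (0.45). The enzymes Gcnt1 and Fut7, which build selectin ligands on the carrier Selplg, rose by 1.99 and 1.25 on the log2 scale, and Selplg rose by 0.42. The call of Fut7 was lost without bone marrow replicate 3 (1.14, limma adjusted p = 0.0504). Itga5 and Icam1, also among the 11, were not called under median-ratio scaling (0.63 and 0.22, limma adjusted p = 0.0595 and 0.0886). Nor were these 2 called without any 1 of the 3 bone marrow libraries. Itga6 and Itgal were called lower (log2 fold changes -0.44 and -0.29), but neither was called when scaled to T cell genes, at -0.14 and 0.01 (limma adjusted p = 0.106 and 0.803).

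**Figure D4:**
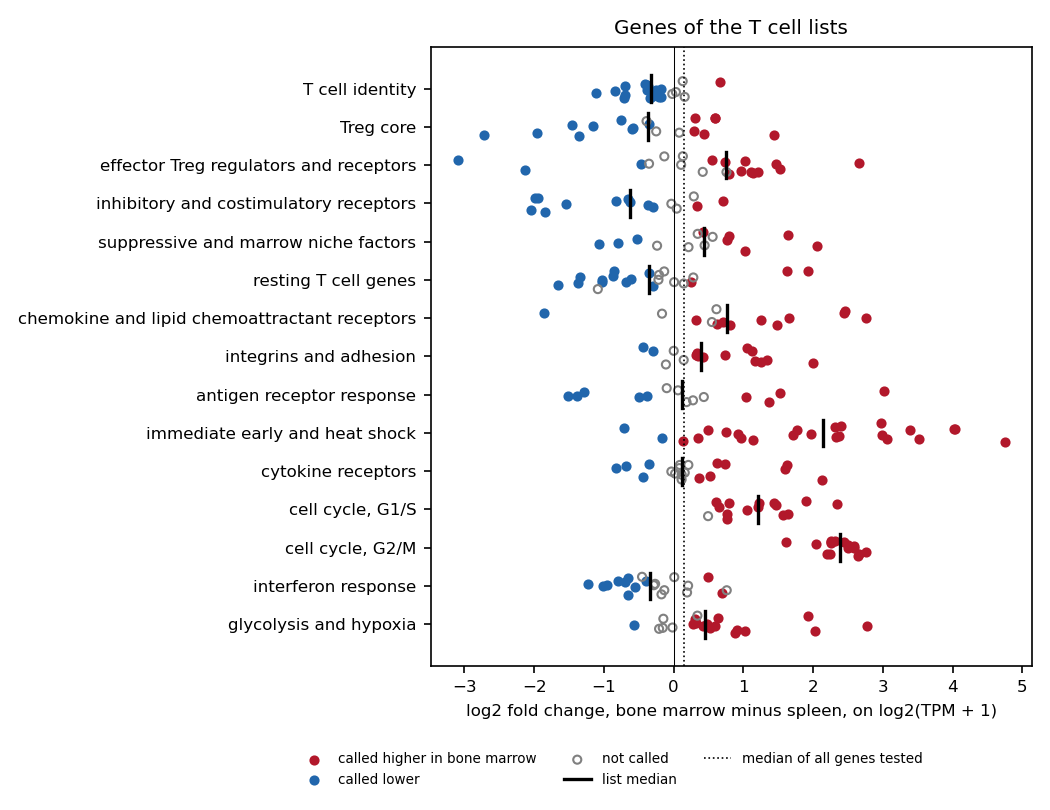
Log2 fold change (x axis, bone marrow minus spleen) of each tested gene of 15 lists, in red or blue where called and open where not, with list medians as bars and the median of all genes, 0.15, as a dotted line. The highest list medians are those of G2/M genes (2.38) and immediate early and heat shock genes (2.14), and the lowest is that of inhibitory and costimulatory receptors (-0.62).

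Immediate early genes, which are transcribed within minutes of a stimulus, and heat shock genes were called higher for 22 of 24 and lower for 2, with a median of 2.14. Fos was at 2184, 2199.6 and 2209.7 TPM in bone marrow and 142, 123 and 137 TPM in spleen (log2 fold change 4.03, SE 0.05, limma adjusted p = 8.31e-08). Its partner Jun was at 354, 348 and 360.5 TPM in bone marrow and 42.5, 41.03 and 41.7 TPM in spleen, and Fosb was at 367, 363 and 356 TPM and 12.4, 13.8 and 11.6 TPM. The phosphatase Dusp1, which switches off MAP kinases, rose from 150.1 to 1201 TPM. Zfp36, which destabilizes cytokine mRNAs, rose from 145 to 771 TPM. The near-identical chaperone genes Hspa1a and Hspa1b rose by 3.51 and 2.98 on the log2 scale, and reads may have been divided between them in counting. Among other chaperones the mitochondrial Hspe1 fell (log2 fold change -0.71). Hsp90aa1 was called higher at 0.13 but was at -0.005 under median-ratio scaling, and leaving out any 1 of the 3 bone marrow libraries or spleen replicate 1 ended its call, with log2 fold changes from 0.10 to 0.14.

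These genes were at lower levels in lymph node, where Fos was at 48.7, Jun at 23.2 and Fosb at 2.82 TPM. In blood, with late neutrophil genes at 20268 TPM, Fos was at 844 TPM, Jun at 50.2 TPM and Hspa1b at 8.81 TPM. The whole list summed to 18138 TPM in liver and 8866 TPM in lung, against 12777 TPM in bone marrow and 4556 TPM in spleen. Neutrophil lists summed to 278 TPM in liver and 1279 TPM in lung. The part of neutrophils in the difference between bone marrow and spleen was not tested.

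Of 14 genes that respond to the antigen receptor 4 were called higher (28.6%) and 5 lower (35.7%), against 25.3% and 9.55% of all genes. Their median of 0.12 turned to -0.01 under median-ratio scaling. Egr1 was at 247, 239.8 and 244 TPM in bone marrow and 26.9, 29.7 and 31.8 TPM in spleen, the same direction as the immediate early genes (log2 fold change 3.01, SE 0.07, limma adjusted p = 8.34e-07). Nr4a1, which encodes the orphan receptor Nur77, rose from 206, 221 and 218 to 569.8, 558 and 543 TPM, and Cd69, which holds cells in tissue by opposing S1pr1, rose from 89.5 to 259 TPM.

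Of their close relatives, Egr2, Egr3 and Nr4a3 fell, while Nr4a2 was not called. In the fit over all 18 libraries Nr4a2 was called higher (log2 fold change 0.43, limma adjusted p = 0.0299). The same held for Nr4a2 when scaled to T cell genes (0.69). Egr2 was at 8.9, 6.27 and 8.47 TPM in bone marrow and 21.7, 21.7 and 18.5 TPM in spleen, and Egr3 was at 5.29, 6.13 and 6.05 TPM and 20.5, 17.9 and 17.3 TPM. Nr4a3 fell from 12.2, 12.5 and 11.5 to 4.38, 3.24 and 4.4 TPM. The 3 libraries of each group did not overlap for any of these 3 genes, as for 14.6% of all genes in the same direction. The log2 fold changes of the 3 genes were -1.29, -1.52 and -1.39. Myc and Rel were called lower as well (log2 fold changes -0.50 and -0.38), but not when scaled to T cell genes, at -0.20 and -0.09 (limma adjusted p = 0.0927 and 0.471). Rel was also not called without bone marrow replicate 1 (-0.35) or 2 (-0.37).

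Cytokine receptors were called higher for 7 of 19 tested and lower for 4 (36.8% and 21.1%, against 25.3% and 9.55% of all genes). Their median of 0.11 turned to -0.01 under median-ratio scaling and was 0.21 without spleen replicate 1. Both chains of the interleukin-18 receptor rose, Il18r1 from 48.3, 41.2 and 45.2 to 138, 134 and 141 TPM and Il18rap from 14.7, 13.3 and 8.02 to 54.9, 55.8 and 52.3 TPM. Il18rap was at 56.2 TPM in blood and 10.9 TPM in lymph node. Ifngr1, the binding chain of the interferon-gamma receptor, rose from 145 to 449 TPM, while its partner Ifngr2 was at 15.4 and 16.4 TPM and was not called. Il6st and Il21r fell (log2 fold changes -0.83 and -0.68). The TGF-beta receptor chains Tgfbr1 and Tgfbr2 were not called, but both were called higher when scaled to T cell genes (0.31 and 0.41).

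Cell cycle genes were higher in bone marrow almost throughout. Of 15 genes of the G1/S transition 14 were called higher and 0 lower, with a median of 1.21. All 16 G2/M genes were called higher, with a median of 2.38. None of the 16 had overlapping libraries, while 34.9% of all genes were higher in bone marrow without overlap. Mki67, the Ki-67 antigen of dividing cells, was at 83.99, 81.2 and 77.7 TPM in bone marrow and 13.8, 13.3 and 13.2 TPM in spleen (log2 fold change 2.51, SE 0.07, limma adjusted p = 1.45e-06). Cyclin B1 (Ccnb1), which activates Cdk1 at mitosis, was at 45.6, 44.8 and 38.8 TPM in bone marrow and 5.39, 4.74 and 6.55 TPM in spleen. Rrm2, the ribonucleotide reductase subunit of S phase, rose from 16.4 to 87.1 TPM. The replicative helicase genes Mcm2 and Mcm4 rose by 0.80 and 0.60, and Gins2 was not called, except without spleen replicate 2 (0.69) or scaled to T cell genes (0.78). In blood Mki67 was at 6.58 TPM and in liver at 32.7 TPM. Dividing precursors of neutrophils, red cells and B cells have their own markers in these libraries, with primary granule genes at 1356 ± 3.62 TPM, Klf1 at 28.1 ± 1.61 TPM and Rag1 at 10.6 ± 0.68 TPM in bone marrow (SD, n = 3). Their part in the cell cycle genes was not tested.

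Promoters of the cell cycle genes were searched because their members moved together. The windows run from 250 bases before to 50 after the gene start and come from RefSeq (build GRCm38.p6). They were found for 13 of 16 G2/M and 12 of 15 G1/S genes, and a gene was counted when any of its windows held the motif. The cell cycle homology region (CHR) was searched as TTTGAA or TTCGAA, the CCAAT box as CCAAT and the E2F motif as TTTCCCGC or TTTGGCGC, each on both strands, and no 2 of these motifs contain each other. A CHR lay in 10 of the 13 G2/M promoters (76.9%) and in 21.7% of all 27025 genes with a promoter. A CCAAT box lay in 12 of the 13 (92.3%, against 41.1% of all), and the E2F letters lay in 0 (against 1.8% of all). Of the 12 G1/S promoters 5 held the E2F letters (41.7%), 2 a CHR (16.7%) and 9 a CCAAT box (75%). The windows below show both arrangements. Kif11 encodes the motor of the mitotic spindle, and its window lies at chr19:37376132-37376431 on the plus strand. Ube2c encodes the ubiquitin conjugase of the anaphase promoting complex, at chr2:164769679-164769978 on the plus strand. Cdc6 encodes a loader of the replicative helicase, at chr11:98907901-98908200 on the plus strand. Capitals mark CHR and CCAAT matches in the first 2 and the E2F match in Cdc6, as read 5′ to 3′ on the gene strand.
Kif11: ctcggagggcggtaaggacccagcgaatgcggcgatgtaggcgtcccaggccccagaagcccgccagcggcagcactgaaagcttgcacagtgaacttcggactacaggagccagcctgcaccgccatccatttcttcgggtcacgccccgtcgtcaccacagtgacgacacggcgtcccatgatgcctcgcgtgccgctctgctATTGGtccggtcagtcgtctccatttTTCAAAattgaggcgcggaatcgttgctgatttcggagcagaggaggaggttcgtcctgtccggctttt
Ube2c: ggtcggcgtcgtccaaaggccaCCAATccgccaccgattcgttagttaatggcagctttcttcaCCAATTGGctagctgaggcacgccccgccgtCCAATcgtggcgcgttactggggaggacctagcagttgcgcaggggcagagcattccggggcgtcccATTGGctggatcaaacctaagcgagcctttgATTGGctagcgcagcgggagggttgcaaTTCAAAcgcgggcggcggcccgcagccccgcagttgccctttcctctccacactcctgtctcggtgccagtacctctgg
Cdc6: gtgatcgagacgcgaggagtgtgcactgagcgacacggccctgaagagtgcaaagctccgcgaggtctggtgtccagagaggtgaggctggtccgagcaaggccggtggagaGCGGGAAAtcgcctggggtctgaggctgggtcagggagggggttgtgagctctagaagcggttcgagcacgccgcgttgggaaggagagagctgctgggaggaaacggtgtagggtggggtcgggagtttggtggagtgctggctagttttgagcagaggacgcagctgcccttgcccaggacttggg
In Kif11 the CCAAT box begins 45 bases and the CHR 19 bases before the gene start. Kif11 was at 32.96, 29.1 and 30.1 TPM in bone marrow and 4.91, 4.06 and 3.25 TPM in spleen, and the groups did not overlap. Ube2c was at 79.2, 71.7 and 64.9 TPM in bone marrow and 9.42, 12.6 and 10.2 TPM in spleen, and Cdc6 was at 15.7, 18.5 and 14.02 TPM in bone marrow and 4.41, 5.66 and 3.55 TPM in spleen. A match describes the letters of the window and does not show that a factor binds there.

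Promoters of the immediate early and heat shock genes were searched in the same way, with windows for 21 of 24. The cAMP response element, TGACGTCA, lay in 3 of 21 (14.3%), namely Dusp1, Btg2 and Ppp1r15a, and in 2.03% of all promoters. The AP-1 letters TGAGTCA or TGACTCA lay in 0 of 21 and in 5.95% of all. The Dusp1 window, at chr17:26508423-26508722 on the minus strand, is shown as the one of the 3 whose gene changed most, with the element in capitals.
Dusp1: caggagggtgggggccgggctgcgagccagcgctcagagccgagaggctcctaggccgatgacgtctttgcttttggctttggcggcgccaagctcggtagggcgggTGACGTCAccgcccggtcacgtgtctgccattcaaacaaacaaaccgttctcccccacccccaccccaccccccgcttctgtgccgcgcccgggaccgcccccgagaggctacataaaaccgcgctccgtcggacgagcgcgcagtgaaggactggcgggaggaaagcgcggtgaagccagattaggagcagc
Dusp1, Btg2 and Ppp1r15a rose by 2.99, 1.77 and 2.37 on the log2 scale.

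Interferon response genes were called lower for 9 of 20 tested (45%) and higher for 2 (10%), against 9.55% and 25.3% of all genes. The list median was -0.34. Scaled to T cell genes 8 were lower and 5 higher, with a median of -0.05. Isg15, a ubiquitin-like modifier, fell from 74.7, 78.3 and 57.9 TPM in spleen to 34.1, 31.95 and 36.01 TPM in bone marrow (log2 fold change -1.02, SE 0.12, limma adjusted p = 0.00104). Usp18, the protease that removes it, fell from 27.2, 29.6 and 19.9 to 10.3, 9.95 and 10.2 TPM. Oas3 and Rsad2, which act against viruses, rose (log2 fold changes 0.50 and 0.70), and their blood levels were 30.5 and 20.7 TPM. The interferon-stimulated response element (ISRE) lay in 9 of the 14 promoters found (64.3%) and in 3.99% of all promoters. Of the 9 genes with it Isg15, Gbp2 and Ifit1 were called lower and Oas3 and Rsad2 higher, and the other 4 were not called. The calls of Oas3 (without bone marrow replicate 1 or 2), Rsad2 (without bone marrow replicate 3) and Ifit1 (scaled to T cell genes, at -0.11, and without any 1 library other than bone marrow replicate 3) were lost.

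Glycolysis and hypoxia genes were called higher for 14 of 20 (70%) and lower for 1 (5%), against 25.3% and 9.55% of all genes. For these genes the median was 0.45. The glucose transporter Slc2a3 was at 138, 144 and 144 TPM in bone marrow and 35.2, 33.6 and 33.4 TPM in spleen (log2 fold change 2.03, SE 0.06, limma adjusted p = 1.29e-06). Hk2, which phosphorylates glucose, rose from 2.04, 1.93 and 2.34 to 10.04, 11.6 and 10.9 TPM, and Vegfa, a hypoxia target, rose from 0.39, 0.72 and 0.18 to 6.9, 8.97 and 10.5 TPM. Enzymes of the trunk of the pathway moved less, with Gapdh at 0.60, Pkm at 0.47 and Aldoa at 0.43 on the log2 scale. Ldha, which makes lactate, was at 406, 418 and 399 TPM in bone marrow and 413, 433 and 392 TPM in spleen and was not called, though it was called higher when scaled to T cell genes (0.29) and lower under median-ratio scaling (-0.15). Ddit4, an inhibitor of mTORC1, fell from 122 to 82.2 TPM. The call of Bnip3 as higher was lost under median-ratio scaling (0.40, limma adjusted p = 0.0738) and without any 1 of the 3 bone marrow libraries. Slc2a3 and Hk2 were at 138 and 16.6 TPM in blood and 43.4 and 2.56 TPM in lymph node.

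Across all genes that averaged 10 TPM or more in the higher group, the 8 with the largest rise were all neutrophil granule or late neutrophil genes, namely Prtn3, Elane, Ctsg, Mpo, Lcn2, Retnlg, Ltf and Mmp8. The 8 with the largest fall were Slc7a10, Il2, Penk, Snora73a, Gpr83, Lrp3, Gsta4 and Tbc1d4. Slc7a10, a neutral amino acid transporter, was at 1.5, 0.98 and 1.17 TPM in bone marrow and 35.1, 18.3 and 31.3 TPM in spleen. Tbc1d4, a regulator of glucose transporter traffic, fell from 96.8, 101 and 98.2 to 19, 20.2 and 17.3 TPM. The glutathione transferase Gsta4 fell from 28.1, 27.9 and 28.3 to 5.12, 4.86 and 4.08 TPM. Snora73a is a small nucleolar RNA without a poly(A) tail, and its values in a poly(A) library, 0, 9.02 and 0 TPM against 12.2, 22.1 and 11.03 TPM, are uncertain (log2 fold change -2.84, limma adjusted p = 0.0484). Its call was lost without any 1 library other than bone marrow replicate 2, with log2 fold changes from -3.02 to -2.28.

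A second set was limited to genes of at least 20 TPM in bone marrow, spleen and lymph node that were in no other-cell list. Its 12 largest rises were Fos, Jun, Egr1, Dusp1, Aldh2, Rgs2, Pglyrp1, Cxcr4, Hist1h1c, Msrb1, Gsr and Ccr2. Several of these are also known from myeloid cells. Pglyrp1, a peptidoglycan-binding protein of neutrophil granules that T cells also express, was at 656, 649 and 649.7 TPM in bone marrow, 104, 80.7 and 88.1 TPM in spleen and 318 TPM in blood. Aldh2, a mitochondrial aldehyde dehydrogenase, was at 338, 415 and 368 TPM in bone marrow and 61.99, 55.8 and 35.8 TPM in spleen, with a blood mean of 594 TPM. Gsr, which regenerates glutathione, was at 162, 149.9 and 147 TPM in bone marrow and 24.4, 24 and 23.6 TPM in spleen. Rgs2, a regulator of G protein signalling, rose from 54.6, 50.2 and 36.7 to 345, 333 and 339 TPM.

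The 12 largest falls in that set were Dtx1, Tnfrsf9, Nsg2, Cd200, Izumo1r, Pdcd1, Rgs10, Ephx1, Ccr7, Cd83, Ecm1 and Mrpl52. Dtx1, a target and regulator of Notch signalling, was at 38.5, 32.1 and 28.9 TPM in bone marrow and 149, 177 and 166 TPM in spleen (log2 fold change -2.28, SE 0.12, limma adjusted p = 2.01e-05). Nsg2, a protein of endosomes, fell from 124, 118 and 130.4 to 30.5, 31.3 and 29.4 TPM, and Rgs10 fell from 292, 297 and 296 to 96.1, 90.3 and 85.1 TPM. Ecm1, a secreted matrix protein, fell from 101 to 34.2 TPM and was at 200.4 TPM in blood. Lack of overlap between libraries was a condition for naming the genes of both sets, Pdcd1 and Cxcr4 among them, and so is not a result. All 12 genes with the largest falls remained lower when scaled to T cell genes, from -1.98 for Dtx1 to -1.19 for Mrpl52.

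The other organs place these genes on a wider scale. Of the 1610 genes that rose by at least 1 log2 unit, 733 (45.5%) averaged under 1 TPM in lymph node and 280 (17.4%) averaged 10 TPM or more there. In blood 348 (21.6%) were under 1 TPM and 683 (42.4%) at 10 TPM or more. Of the 332 genes that fell by at least 1 log2 unit, 143 (43.1%) averaged 10 TPM or more in lymph node and 49 (14.8%) were under 1 TPM. The matching shares of all genes tested were not computed. The filter also admits genes that reach 1 TPM in bone marrow or spleen alone, so these shares only describe the called genes.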

How the data were processed

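Poly(A) RNA libraries were made with a directional kit, per the labels' protocols. The authors deposited gene tables in TPM for each library, and the submitters' processing notes name STAR, RSEM and mm10 without versions. Depth was read from the steps of low TPM values, where 84.2% to 88.5% of values lay within 0.1 of a whole read over 12062 genes. Groups came from the sample titles.

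Values were tested as log2(TPM + 1) with limma 3.58.1 in R 4.3.3 (trended, robust variances, 4 residual degrees of freedom), over genes averaging 1 TPM or more in either group, with Benjamini-Hochberg adjustment. The script was tested on simulated data. Named genes followed 2 rules. The first took the 8 largest called changes per direction with no overlap between libraries and 10 TPM or more on average where higher. The second took 12 per direction with at least 20 TPM in both groups and lymph node, outside other-cell lists. Predicted, receptor segment and immunoglobulin genes were left out. Members, 32 gene lists (408 of 409 genes matched) and rules were chosen with earlier results of these data known. No p-value is given for a list, and 4 list members that enter the counts are not reported singly here. Alternatives covered pseudocount, filter, scaling, weights, samples fitted, replicate block and leaving out each library.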

Additional observations from a re-analysis of the deposited data

How the results depend on the processing

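Scaled to T cell genes, 6976 genes were called higher and 660 lower, in place of 3702 and 1398; every other setting kept both counts within 1.5 times of those. Leaving out a bone marrow library gave 2581 to 2593 higher and 961 to 973 lower, and leaving out a spleen library gave 3510 to 3532 and 1339 to 1373. With the replicate number as a block 3060 were higher and 1179 lower. Same-numbered libraries correlated at -0.0395, -0.0720 and -0.0384 in their deviations over 6484 genes, and no library correlated best with its own number. No shared deviation was seen, but such small values cannot tell whether same-numbered libraries came from the same animals.

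Median-ratio scaling turned the median log2 fold changes of antigen receptor response genes (-0.006), cytokine receptors (-0.013) and red pulp macrophage genes (-0.105), and of Hsp90aa1 (-0.005). Leaving out 1 library at a time gave red pulp medians from -0.035 to 0.195 (-0.018 without bone marrow replicate 3) and mitochondrial medians from -0.125 to 0.004. Without a filter the plasma cell median was 0.031. Scaling to T cell genes turned the medians of plasma cell (0.107), sex-linked (0.126) and mitochondrial genes (0.289). It also turned the log2 fold changes of Cd3e (0.001), Cd5 (0.126), Trac (0.284), Cd28 (0.048), Skap1 (0.126), Tnfrsf1b (0.168), Tigit (0.269), Cd81 (0.008), Foxo1 (0.002), Itgal (0.012), Nfatc1 (0.201), Hsph1 (0.131), Il2rg (0.271), Ldha (0.287), Cd79a (0.269), Cd79b (0.246), Pecam1 (0.058) and Kdm5d (0.03). That scaling itself sets the T cell genes equal; for the other settings the cause was not tested.

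Of the 40 genes named by rule, Snora73a alone lost its call, in 10 settings. With 3 libraries per group and a spleen depth below that of bone marrow, small differences of low genes have limited precision.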

Other observations

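A further 4 gene groups were described after their values had been seen, so their counts are descriptions. The calcium-binding S100 proteins and annexins outside the neutrophil lists were called higher for 8 of 8, with a median log2 fold change of 1.64. Anxa1, which limits inflammation and is abundant in neutrophils, was at 574, 556 and 537 TPM in bone marrow, 10.6, 9.92 and 11.1 TPM in spleen and 276 TPM in blood. S100a4, a marker of memory T cells that myeloid cells share, was at 1022, 1041 and 992 TPM in bone marrow and 367, 325 and 297 TPM in spleen. Enzymes of the pentose phosphate pathway and of glutathione were called higher for 9 of 12 and lower for 0, with a median of 1.03. Pgd, which makes NADPH in that pathway, was at 179.9, 180.4 and 185 TPM in bone marrow and 52.1, 51.6 and 51.7 TPM in spleen, and Gpx1, which removes peroxides, rose from 326 to 811 TPM. The part of neutrophils, whose lists summed to 50453 ± 209.7 TPM in bone marrow, was not tested.

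Genes of antigen processing for MHC class I ran lower in bone marrow, with 8 of 8 called lower and a median of -0.72, or 5 lower and 1 higher when scaled to T cell genes. The immunoproteasome subunit Psmb10 was at 198, 185 and 201 TPM in bone marrow and 409, 453 and 411 TPM in spleen, and the proteasome activator Psme2 at 297, 305 and 279.5 TPM and 556, 560.4 and 602 TPM. Of 7 further Bcl2 family genes 2 were called higher (28.6%) and 3 lower (42.9%), against 25.3% and 9.55% of all genes, with a median of -0.14 that turned to 0.15 when scaled to T cell genes. Mcl1, an inhibitor of cell death, rose from 247 to 311 TPM while Bcl2a1b fell from 173 to 67.1 TPM. Bcl2a1b and Bcl2a1d are near-identical copies, so the division of reads between them is uncertain.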
